A study of Mus musculus with 30 samples.

Results

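Mme encodes neprilysin, a membrane-bound enzyme that inactivates signalling peptides outside the cell. It is described here with 5 other genes of membrane peptidases, Ece1, Ace, Enpep, Anpep and Dpp4, across fetal lung and fetal liver. They are 6 of the 18193 genes named on the array and are read by 13 of its 45101 probe sets: 2 for Mme, 3 for Ece1, 2 for Ace, 4 for Dpp4 and 1 each for Enpep and Anpep. A gene with several probe sets is read from the one whose mean over the 30 arrays was highest, and the others are given beside it. Mme was selected on its lower level in exposed lung, and the other 5 were chosen as related peptidases. The lung values of Mme are therefore a description, with no test, and the question asked of the other 5 is whether they share that fall.

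The fetuses came from CD-1 dams, an outbred mouse stock, that were given PFOS, or perfluorooctane sulfonate, as its potassium salt. PFOS is a fluorinated surfactant that persists in the body. Dams were dosed by gavage in 0.5% Tween 20 on gestation days 1 to 17, at 0, 5 or 10 mg/kg/day (called unexposed, low dose and high dose), and fetal tissue was taken on day 18. Each array holds RNA of 3 pooled fetuses of 1 litter, with 5 litters per tissue and dose. The labels do not say whether lung and liver arrays with the same number share a litter. Levels are log2 values, so a difference of 1 is a doubling, and group values are means over 5 litters with their SD. Alveolar markers averaged 10.38 to 10.53 for type 1 cells over the unexposed lung litters and hepatocyte markers 12.76 to 12.97 over the unexposed liver litters, as the tissue labels state. Whole tissue was measured, so fewer cells of a type and less RNA per cell cannot be told apart.

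Neprilysin and endothelin-converting enzyme (Ece1) are zinc metallopeptidases of the same family. Neprilysin degrades tachykinins, bombesin-like peptides, enkephalins and natriuretic peptides, and in developing lung it is known for limiting the growth-promoting action of bombesin-like peptides. Angiotensin-converting enzyme (Ace), dense on lung capillary endothelium, makes angiotensin II and degrades bradykinin. Aminopeptidase A (Enpep) trims angiotensin II, aminopeptidase N (Anpep) removes neutral amino acids from short peptides, and dipeptidyl peptidase 4 (Dpp4) clips dipeptides from incretins and chemokines such as Cxcl12.

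The sequences upstream of Mme are shown because its transcript is the one the set was built around. RefSeq, on GRCm38.p6, gives Mme 3 windows of 250 bases before a transcript start, and the third overlaps the second. Below, capitals mark matches on either strand to the GC box (GGGCGG) and to the CCAAT box (CCAAT), 5′ to 3′ on the plus strand. The upstream window lies at chr3:63294961-63295210 and the one called downstream at chr3:63295622-63295871. The third, further downstream, is not shown.
Mme, upstream start: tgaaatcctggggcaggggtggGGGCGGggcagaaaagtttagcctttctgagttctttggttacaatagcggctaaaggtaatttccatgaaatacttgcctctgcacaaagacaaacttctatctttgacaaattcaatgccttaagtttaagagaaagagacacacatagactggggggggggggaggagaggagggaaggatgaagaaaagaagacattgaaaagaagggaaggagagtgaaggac
Mme, downstream start: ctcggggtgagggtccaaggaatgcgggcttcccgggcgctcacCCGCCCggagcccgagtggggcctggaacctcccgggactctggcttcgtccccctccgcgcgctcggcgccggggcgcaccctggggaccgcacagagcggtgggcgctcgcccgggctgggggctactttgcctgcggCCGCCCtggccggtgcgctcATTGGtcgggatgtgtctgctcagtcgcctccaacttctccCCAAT
The upstream window is 45.6% G and C with 2 CpG dinucleotides, and the downstream one is 73.2% with 27. Over all 32851 RefSeq windows of this length the medians were 52.4% and 6. Across the 6 genes there were 12 windows. Some windows of Mme and of Ece1 overlap in part, so 1 site can count in more than 1 window. A GC box was in 7 of the 12 and in 32.74% of all windows, and a CCAAT box was in 6 and in 33.85%. The letters TATAAA were in 3 of the 12 (Ace, Dpp4 and Enpep) and in 12.37% of all windows, and the nuclear receptor half-site AGGTCA was in 1 of the 12 (Ace) and in 14.02%. A match describes letters, not a bound site.

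Mme was lower in the lungs of exposed litters at both doses and was near the bottom of the array's range in liver. In unexposed lung its probe set 1455961_at read 8.52, 8.38, 8.64, 8.59 and 8.66 in litters 1 to 5. At the low dose it read 8.35, 8.19, 8.19, 8.28 and 8.34, and at the high dose 8.15, 7.99, 8.32, 8.09 and 7.91. Every exposed litter lay below every unexposed one, at either dose, while the low-dose and high-dose litters overlapped. The means were 8.56 ± 0.11 (SD, n = 5), 8.27 ± 0.08 and 8.09 ± 0.16, differences from unexposed of -0.29 (SE 0.08) and -0.47 (SE 0.08), or 82.0% and 72.4% of the unexposed level. Both differences use the same unexposed litters. The high-dose mean was 0.18 below the low-dose mean. Groups did not overlap, in either direction, for 0.837% of the 12897 genes tested in lung at the low dose and for 1.23% at the high dose. This is the contrast that selected Mme, so nothing is read from it.

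The other Mme probe set, 1422975_at, was dimmer and moved the same way with more scatter. It read 5.75, 5.43, 6.19, 5.45 and 5.42 in unexposed lung, 5.84, 5.12, 5.42, 5.17 and 5.25 at the low dose, and 5.29, 5.03, 5.45, 5.21 and 5.10 at the high dose. Groups overlapped at both doses. Its differences were -0.29 and -0.43, or 81.8% and 74.2% of unexposed, with 4 of 5 and 5 of 5 exposed litters below the unexposed mean. It reads the same RNA as the first probe set and is not independent of it.

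In liver Mme lay below the 40th percentile of the array, which stood at 4.16 to 4.22 over the liver arrays. Its 1455961_at litters ran from 2.24 to 3.29 without PFOS, from 2.58 to 3.71 at the low dose and from 2.33 to 3.01 at the high dose, and the 3 groups overlapped. The gene did not pass the filter on dim probe sets in liver and was not tested for dose there. The 1422975_at values in liver averaged 3.15, 3.09 and 2.63, also in the dim range, and at the high dose all 5 litters were below every unexposed one. At this brightness the number carries little information on transcript level.

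**Figure D1:**
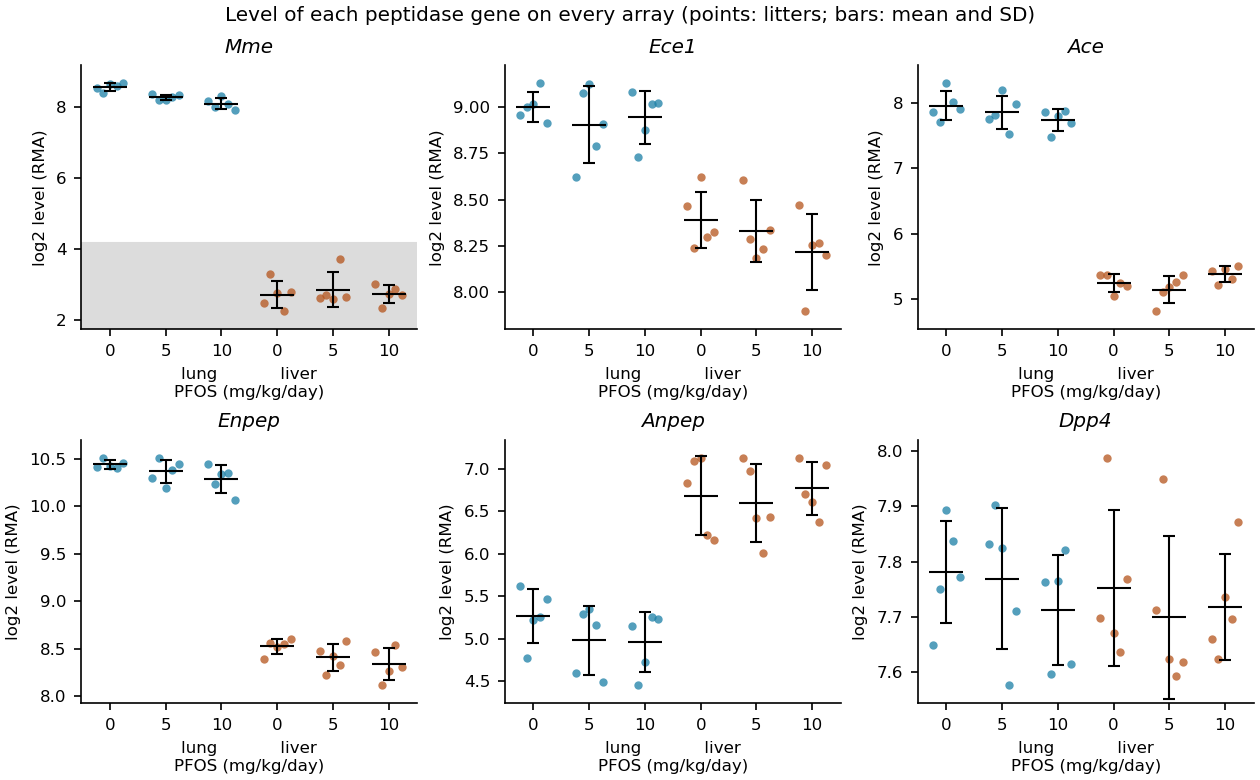
Log2 level (vertical axis, a separate scale in each panel) of the 6 peptidase genes on every array, by PFOS dose in mg/kg/day, with lung in blue and liver in brown. Points are litters, bars are the mean and SD of 5 litters, and the grey band in the Mme panel marks levels below the 40th percentile of the array. Mme steps down from 8.56 to 8.27 to 8.09 in lung, while the lung groups of the other 5 genes overlap.

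None of the 5 related peptidases was called in lung at either dose. With limma, 0 of 5 had an adjusted p under 0.05 and 0 of 5 an unadjusted p under 0.05 at each dose. The background was low: limma called 0.0155% of all genes tested in lung at the low dose and 0.0543% at the high dose, 2 and 7 of 12897. With an unadjusted p under 0.05, limma had 596 and 891 genes. All 5 related genes had differences below 0 at both doses, where 48.05% and 47.84% of all genes tested did. The median of the 5 related genes was -0.10 and -0.15, beside 0.0041 and 0.0052 over all genes.

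Ece1, the closest relative of Mme in this set, read 8.96, 8.999, 9.01, 9.13 and 8.91 in unexposed lung. It read 8.62, 9.08, 9.12, 8.79 and 8.90 at the low dose, and 9.08, 8.73, 8.88, 9.01 and 9.02 at the high dose. The groups overlapped, and 3 of 5 litters at the higher dose were above the unexposed mean. Its difference at the high dose was -0.06 (SE 0.09, 95% interval -0.25 to 0.14, limma adjusted p = 0.930). The interval leaves out the -0.47 of Mme, taken here and below as a fixed number without its own error. Of its other probe sets, 1455741_a_at differed by -0.19 and -0.14 at the lower and higher dose, and the dim 1441423_at by 0.35 and 0.24, so the mean of the 3 had the opposite sign.

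Ace, the angiotensin-converting enzyme, read 7.86, 7.70, 8.29, 8.02 and 7.90 in unexposed lung and 7.76, 7.82, 8.20, 7.52 and 7.98 at the low dose. At the high dose it read 7.86, 7.47, 7.79, 7.87 and 7.68, all below the unexposed mean of 7.95 but within the unexposed range in 3 of 5 litters. The difference was -0.22 (SE 0.13, 95% interval -0.49 to 0.05, limma adjusted p = 0.774). That interval holds both 0 and the -0.47 of Mme, so these litters do not separate no change from one as large. With each litter left out in turn it ran from -0.28 to -0.13, the smallest without unexposed litter 3. The second Ace probe set, 1451911_a_at, differed by -0.23 at the low and -0.14 at the high dose.

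Enpep, aminopeptidase A, varied least between unexposed litters, with 10.41, 10.51, 10.43, 10.40 and 10.46. It read 10.30, 10.51, 10.19, 10.38 and 10.45 at the low dose and 10.45, 10.23, 10.34, 10.36 and 10.07 at the high dose. At the higher dose 4 of 5 litters were below every unexposed one, and litter 1 lay within the unexposed range. Its difference of -0.15 (SE 0.07, 95% interval -0.31 to 0.0018) had the smallest limma p of the 5, at 0.0524 unadjusted and 0.720 adjusted. The interval leaves out the -0.47 of Mme.

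Anpep, aminopeptidase N, was the most variable of the 6 in lung. It read 5.63, 4.77, 5.22, 5.26 and 5.46 without PFOS, 4.60, 5.29, 5.35, 5.16 and 4.49 at the low dose, and 5.15, 4.46, 4.73, 5.25 and 5.24 at the high dose. The groups overlapped. Its difference at the high dose was -0.30 (SE 0.20, 95% interval -0.74 to 0.13, limma adjusted p = 0.817), an interval that also holds both 0 and the value of Mme. At the low dose its -0.29 was the same size as that of Mme, with an SE of 0.20 against 0.08. With each litter left out in turn it ran from -0.41 to -0.17 at the low dose, the smallest without exposed litter 5, and from -0.43 to -0.18 at the high dose, the smallest without exposed litter 2.

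Dpp4, the dipeptidyl peptidase, was nearly flat in lung on its brightest probe set. It read 7.65, 7.75, 7.89, 7.84 and 7.77 without PFOS, 7.83, 7.90, 7.83, 7.58 and 7.71 at the low dose, and 7.76, 7.60, 7.76, 7.82 and 7.61 at the high dose. The difference at the higher dose was -0.07 (SE 0.07, 95% interval -0.22 to 0.08, limma adjusted p = 0.889). Its 3 dimmer probe sets differed by -0.05, -0.09 and -0.36 at that dose, and by -0.01, -0.34 and -0.04 at the low dose. The SE was 0.22 for the -0.36 and 0.21 for the -0.34, so the size of the Dpp4 change depended on the probe set. At the low dose the limma adjusted p was 0.998 for each of the 5 related genes.

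**Figure D2:**
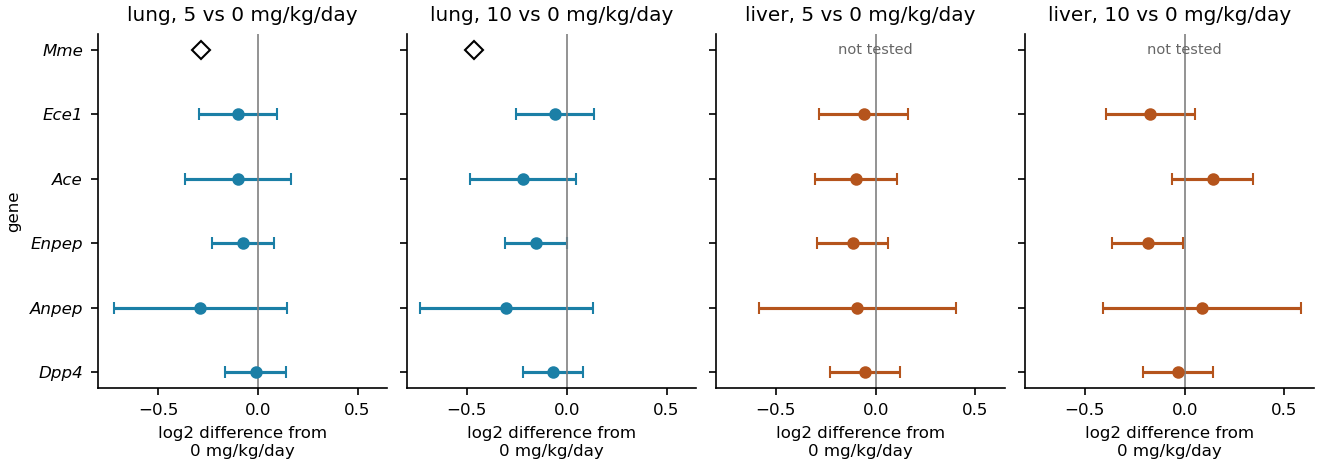
Log2 difference from 0 mg/kg/day (horizontal axis) for each peptidase gene (vertical axis) in lung (blue) and liver (brown) at both doses. Filled points carry limma 95% intervals, and the open diamonds are Mme in lung, which is described without a test. At 10 mg/kg/day in lung the intervals of Ece1, Enpep and Dpp4 lie to the right of the Mme value of -0.47, and those of Ace and Anpep hold it. The error of the Mme value is not drawn.

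At the high dose in lung, then, on the chosen probe sets, 3 of the 5 intervals left out the -0.47 of Mme and 2 held it. At the low dose 2 of the 5, those of Enpep and Dpp4, left out the -0.29 of Mme and 3 held it. These comparisons take the Mme value as a fixed number, though Mme was selected for its fall and its SE was 0.08. No difference between Mme and another gene was tested, so none of the 5 is shown to differ from Mme. Of the 11 probe sets of these 5 genes, 10 were below their unexposed mean at each dose, the exception being the dim Ece1 probe set. Probe sets of 1 gene read the same transcripts and are not separate evidence. Besides the selected Mme, all 5 litters lay below the unexposed mean at the high dose for Ace and Anpep. On the second Ace probe set 2 of 5 did. The share of all genes with all 5 litters below is not given here, so no shared fall is read from this.

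**Figure D3:**
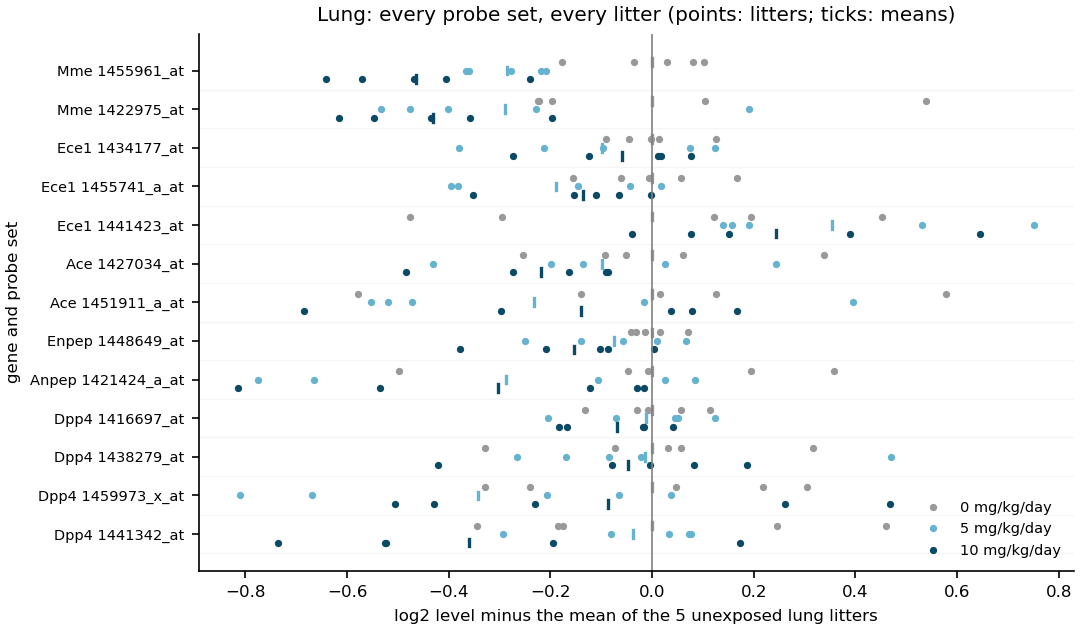
Lung log2 level of all 13 probe sets (vertical axis) minus the mean of the 5 unexposed lung litters (horizontal axis), with points for litters and ticks for means, grey for 0, light blue for 5 and dark blue for 10 mg/kg/day. The exposed points of Mme 1455961_at lie wholly left of its grey points, and those of the dim Ece1 1441423_at lie mostly to the right of 0.

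Litters low in Mme for their dose were not shown to be low in the related genes. With dose means removed over the 15 lung litters, Mme's Pearson r was 0.340 with Ace (permutation p = 0.205), 0.347 with Enpep (permutation p = 0.296) and 0.311 with Dpp4 (permutation p = 0.269). It was -0.246 with Ece1 (permutation p = 0.372) and -0.117 with Anpep (permutation p = 0.693). Spearman's rho was 0.314, 0.196, 0.268, -0.293 and -0.200 in the same order, with permutation p of 0.269, 0.516, 0.338, 0.283 and 0.490. Over these 5 relations the adjusted permutation p was at least 0.466 for r and 0.516 for rho. Without the 2 litters farthest from the median in Mme, r was 0.376 for Ace, 0.0611 for Enpep, 0.178 for Dpp4, -0.164 for Ece1 and 0.113 for Anpep.

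The genes most like Mme across lung litters were ranked by r of the deviations from the dose means over 15 litters, among 12383 genes. The 5 highest were Dram2 (r = 0.880, rho = 0.914), the transcription factor gene Klf15 (0.851 and 0.793), Hbb-y, an embryonic globin (0.848 and 0.839), the T cell co-receptor gene Cd4 (0.826 and 0.764) and Zbtb7c (0.826 and 0.757). They were picked as the highest of many, so the values are a description. Without the 2 litters farthest in Mme, r ran from 0.643 for Cd4 to 0.779 for Klf15. None of the 5 was called with dose: at the high dose they differed by -0.00060, 0.02, 0.15, 0.03 and 0.12 in the order named, with limma adjusted p of 0.833 or more. The 2 Mme probe sets themselves had r = 0.491 and rho = 0.429 over the same 15 litters.

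In liver none of the 5 related peptidases was called at either dose. Limma called 6.07% of the 13269 genes tested in liver at the low dose and 10.5% at the high dose, so none of 5 is near the background. Among the 5 genes, 0 and 1 had an unadjusted p under 0.05, beside 19.79% and 23.95% of all genes tested. That one was Enpep, which read 8.38, 8.56, 8.51, 8.55 and 8.60 without PFOS, 8.48, 8.22, 8.43, 8.33 and 8.58 at the low dose, and 8.46, 8.11, 8.26, 8.53 and 8.31 at the high dose. At the higher dose 3 of 5 litters were below every unexposed one. Its differences were -0.12 (SE 0.08, limma adjusted p = 0.501) and -0.19 (SE 0.08, limma unadjusted p = 0.0422, adjusted p = 0.189).

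Ece1 in liver read 8.46, 8.24, 8.62, 8.30 and 8.32 without PFOS and 8.47, 7.90, 8.25, 8.26 and 8.20 at the high dose, with overlap. The difference was -0.17 (SE 0.11, limma adjusted p = 0.354), and at the low dose it was -0.06 (adjusted p = 0.816). Its probe set 1455741_a_at differed by -0.37 at the high dose, with 4 of 5 litters below every unexposed one.

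Ace in liver was 5.24 ± 0.14 (SD, n = 5) without PFOS, 5.15 ± 0.21 at the low and 5.38 ± 0.12 at the high dose. The 2 Ace probe sets disagreed at the higher dose, with 0.14 (SE 0.10, limma adjusted p = 0.419) for the brighter and -0.31 for 1451911_a_at. Dpp4 in liver differed by -0.05 and -0.03 (limma adjusted p = 0.788 and 0.854). Anpep was again the most scattered of the 5, with unexposed litters from 6.17 to 7.13, and differed by -0.09 and 0.09 (SE 0.23, limma adjusted p = 0.876 and 0.874). For the chosen probe sets of these 5 genes every liver group overlapped its unexposed group. Groups did not overlap for 7.6% of genes tested at the low dose and 9.04% at the high dose, so 5 genes are too few to be set apart from that background.

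Whether lung and liver differed in their response was tested in 1 fit of all arrays. None of the 5 related genes was called at either dose, where limma called 2.06% of 13856 genes at the low dose and 3.89% at the high dose. The number with an unadjusted p under 0.05 was 0 at the lower dose and 1 at the higher, beside 11.68% and 15.99% of all genes. That one was Ace, whose lung change minus liver change at the high dose was -0.36 (SE 0.16, limma unadjusted p = 0.0363, adjusted p = 0.269). With the mean of both Ace probe sets it was -0.095 (adjusted p = 0.905). The value was -0.39 for Anpep (SE 0.33, adjusted p = 0.629), 0.11 for Ece1, -0.03 for Dpp4 and 0.03 for Enpep. For Mme it was -0.42 at the low and -0.49 at the high dose, untested, and its liver side is read from a dim probe set.

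Most of these genes differed between the unexposed tissues. Limma called Ace, Enpep and Ece1 lower and Anpep higher in unexposed liver than in unexposed lung, where it called 83% of 13856 genes. Mme had the widest gap: at least 20.4-fold lower in liver, taking the 40th percentile of the liver arrays as the bound. It passed the filter through lung alone and is given without a test. Ace was 6.54-fold lower in liver (-2.71, SE 0.12, limma adjusted p = 1.20e-18) and Enpep 3.79-fold lower (-1.92, SE 0.08, adjusted p = 5.70e-19). Ece1 was lower by a smaller step, -0.61 (SE 0.10, limma adjusted p = 3.39e-06). Anpep ran the other way, 2.67-fold higher in liver (1.42, SE 0.23, limma adjusted p = 2.74e-06).

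Dpp4 depended on the probe set. The brightest, 1416697_at, read 7.65 to 7.89 in unexposed lung and 7.64 to 7.99 in unexposed liver, a difference of -0.03 (SE 0.08, limma adjusted p = 0.737). The other 3 were lower in liver by 0.84, 0.96 and 0.88 with no overlap between tissues, and the mean of all 4 differed by -0.68 (adjusted p = 2.64e-07). Both Mme and both Ace probe sets, by contrast, were lower in liver without overlap.

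Ordered by level, the groups fell out by tissue first. Mme ran from unexposed lung through low-dose to high-dose lung and then, after a wide gap, the 3 liver groups, which overlapped each other. For Ace and Enpep every lung litter lay above every liver litter, and within a tissue the 3 dose groups overlapped. Ece1 had the same order, but its lowest lung litter and its highest liver litter both read 8.62 after rounding. For Anpep the liver litters, 6.01 and above, lay above all lung litters, the highest of which was 5.63. The 6 Dpp4 group means, 7.70 to 7.78, were all within their SDs of each other.

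None of the other listed peptidases that cleave extracellular or small peptides was called in lung. Of 35 listed genes 23 passed the filter there, and limma called 0 at either dose, with 1 and 2 at an unadjusted p under 0.05. Their median difference was -0.02 at the low dose and 0.00038 at the high dose. Ece2, a further relative of Mme, was 5.73 ± 0.10 (SD, n = 5), 5.76 ± 0.13 and 5.73 ± 0.17 at the 3 doses. Phex, in the same metallopeptidase family, was -0.51 at the low dose (SE 0.18, limma adjusted p = 0.978), with 4 of 5 litters below the unexposed mean. At the high dose it was -0.58 (SE 0.18, 95% interval -0.96 to -0.19, limma adjusted p = 0.542), with 5 of 5 below. That interval leaves out 0 and holds the -0.47 of Mme, but Phex was picked after its values were seen. Kel, also of that family, was -0.15 and 0.24 (limma adjusted p = 0.998 and 0.766). Ide, the insulin-degrading enzyme, was 0.20 (SE 0.06, adjusted p = 0.478). Fap, the closest relative of Dpp4, was 4.34 ± 0.25, 4.51 ± 0.53 and 4.59 ± 0.41 in lung. Mmel1 and Lvrn were below the filter in both tissues.

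In liver at the high dose limma called 3 of 23 listed peptidases, 2 lower and 1 higher, a share close to the 10.5% of all genes. Cpm, a membrane carboxypeptidase that removes basic residues, fell by 0.78 (limma adjusted p = 0.00782), and Nln, neurolysin, rose by 0.39 (adjusted p = 0.0178). Lta4h, an aminopeptidase that also makes leukotriene B, was called at -0.28 (adjusted p = 0.0388). It was not called when its probe sets were averaged (-0.08, adjusted p = 0.584), without any 1 of the 5 unexposed litters, or without litter 1, 3 or 5 at the high dose (adjusted p from 0.0542 to 0.0981).

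The peptides these enzymes act on, and their receptors, were listed by system. In lung limma called 0 genes of each of the 6 lists at each dose, and the kinin and endothelin lists also had 0 at an unadjusted p under 0.05. Of 6 tested genes of the renin-angiotensin system, none was below 0 in lung, with medians of 0.16 at both doses and 1 of 6 at an unadjusted p under 0.05. That gene was Cma1, a mast cell chymase that also makes angiotensin II, which averaged 4.01, 4.54 and 4.45. It was above the 40th percentile on 1 of 5 unexposed arrays and on all exposed ones, so it passed the filter through the exposed litters. Agt, the angiotensin precursor, was 7.67 ± 0.28 (SD, n = 5), 7.83 ± 0.22 and 7.86 ± 0.18 in lung. The receptor genes Agtr1a and Agtr2 differed by 0.03 and 0.13 at the high dose.

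Grp, the gene of the mammalian bombesin-like peptide that neprilysin degrades, varied widely between lung litters. It ranged from 5.11 to 6.90 over the unexposed lung litters, from 4.61 to 6.25 at the low dose and from 4.89 to 6.83 at the high dose. Of its list of tachykinin, bombesin-like and opioid genes, 8 passed the filter in lung, with 0 and 1 at an unadjusted p under 0.05. Edn1, which encodes the peptide matured by Ece1, was 6.57 ± 0.28, 6.68 ± 0.29 and 6.66 ± 0.38, and the endothelin receptor gene Ednrb differed by -0.04 and -0.08. Npr3, the clearance receptor of natriuretic peptides, differed by 0.14 and 0.10.

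The largest lung values in these lists were those of the natriuretic peptide genes Nppa and Nppb at the high dose, 1.53 (SE 1.42) and 1.12 (SE 0.45), neither called (limma adjusted p = 0.875 and 0.642). Of 8 tested genes of that list, 0 and 1 had an unadjusted p under 0.05. These are genes of heart muscle. Nppa is itself in the list of cardiac markers, and the 6 others were all above their unexposed means at that dose, with a median of 0.43. Their part in these values was not tested. Among the receptors and substrates of Dpp4, 7 passed in lung with 0 and 2 at an unadjusted p under 0.05. Glp1r, the receptor of an incretin and 1 of these 2, averaged 4.31, 4.12 and 3.73 and was above the 40th percentile on 3, 2 and 0 of 5 arrays, too dim for a fold. Cxcl12 differed by -0.15. Bdkrb2 was below the filter in both tissues.

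In liver several genes of these systems were called. Ednrb fell by 0.44 at the low and 0.67 at the high dose (limma adjusted p = 0.0278 and 0.000926). Klkb1, plasma kallikrein, fell by 0.33 and 0.50 (adjusted p = 0.0358 and 0.00159), and of the subunits of the kinin-degrading carboxypeptidase N, Cpn1 rose by 0.40 at both doses (adjusted p = 0.00281 and 0.00164). Cpn2 fell by 0.40 at the high dose (adjusted p = 0.00212), though it was not called in the fit of both tissues (adjusted p = 0.313). Agtr1a fell by 0.34 (adjusted p = 0.00782) and Agt by 0.26 (adjusted p = 0.0364) at the high dose. Tac2, a tachykinin gene, was called lower at both doses but passed the filter through the unexposed litters. It averaged 4.58, 3.77 and 3.85 and was above the 40th percentile on 5, 1 and 0 of 5 arrays. Called in all were 1 of 3 tested endothelin genes at each dose, 2 and 3 of 5 kinin genes, 0 and 2 of 5 renin-angiotensin genes, and 1 of 11 tachykinin, bombesin-like and opioid genes, Tac2, at each dose. Of all genes tested limma called 6.07% and 10.5%. These lists are small, and none was tested against those shares. None of the 6 natriuretic or 4 Dpp4-related genes tested was called, and at an unadjusted p under 0.05 limma had 0 of the former and 1 of the latter at each dose.

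Some markers of cell types in liver were called at the high dose as well. All 10 granulocyte and macrophage markers were below their unexposed means, where 56.45% of all genes tested were. Their median was -0.32, and limma called 4 of them lower. It called 3 of 8 hepatocyte markers, 2 of 4 mesothelial markers and 3 of 9 lung mesenchyme markers lower, and 1 of these 9, Plin2, higher. Among smooth muscle and pericyte markers it called 1 of 8 lower. It called none of the 10 endothelial, 5 erythroid and 5 lymphoid markers tested. Of all genes tested it called 10.5%. The lists are small, and none was tested against that share. The part of these cell types in the liver changes was not tested.

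Some of the calls in liver were lost when 1 litter was left out. At the low dose Klkb1 was not called without unexposed litter 1, 3 or 4 or exposed litter 1, 2 or 4 (limma adjusted p from 0.0668 to 0.0832). Ednrb at that dose was not called without unexposed litter 1, 3 or 4 or exposed litter 2, 3 or 5 (adjusted p from 0.0550 to 0.0709). Agt at the high dose was not called without unexposed litter 1, 2, 3 or 4 or exposed litter 2, 4 or 5 (adjusted p from 0.0501 to 0.0900).

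**Figure D4:**
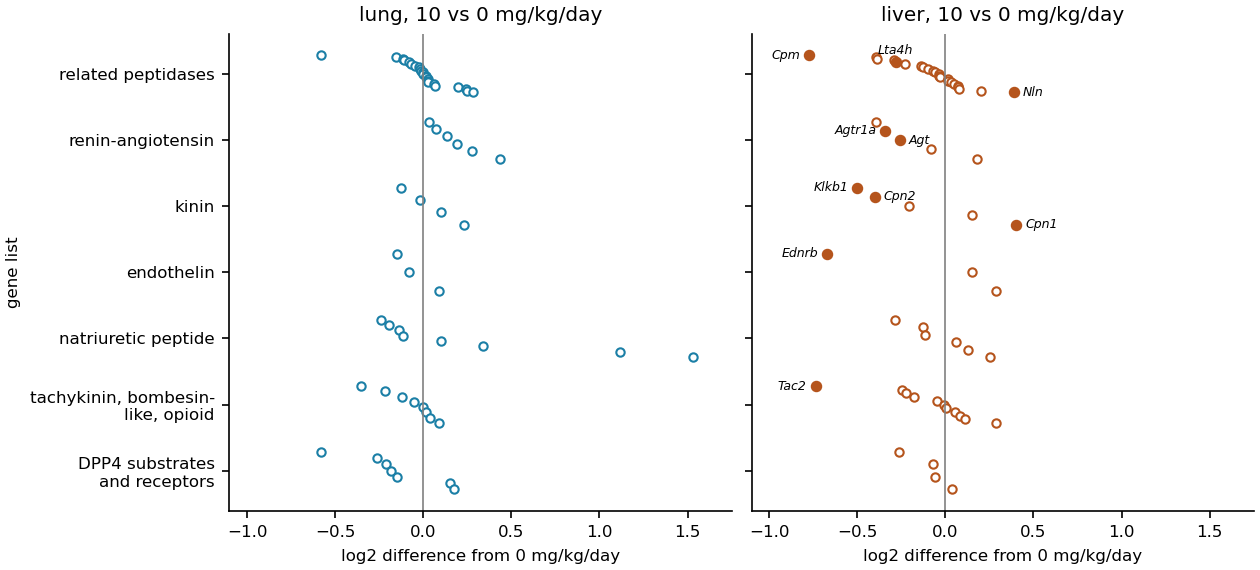
Log2 difference at 10 mg/kg/day (horizontal axis) of every tested gene in 7 lists of related peptidases and peptide systems (vertical axis), in lung (left) and liver (right). Filled, named points were called by limma, and open points were not. All points are open in lung, and in liver the named points run from -0.78 for Cpm to 0.40 for Cpn1.

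Markers of the main lung cell types are given beside the lower Mme values. At the high dose 7 of 7 alveolar type 2 markers were below their unexposed means, with a median of -0.11, and their litter averages ran from 11.03 to 11.22 without PFOS and from 10.79 to 11.09 with it. For alveolar type 1 cells 6 of 9 were below, with a median of -0.0041. For mesenchyme 6 of 10 were below, with a median of -0.08 and litter averages of 9.21 to 9.59 and 9.29 to 9.59. For endothelium 8 of 10 were below, with a median of -0.05 and litter averages of 8.89 to 9.04 and 8.83 to 8.96. Limma called none of these markers, with 1, 1, 2 and 0 at an unadjusted p under 0.05 in the order given, and their part in the fall of Mme was not tested.

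Heart and liver markers varied between lung litters, with averages of 7.36 to 10.49 without PFOS and 8.62 to 10.35 at the high dose for heart, and 8.07 to 9.34 and 7.47 to 9.13 for hepatocytes. With the cardiac average as a covariate, chosen after seeing the data, Mme differed by -0.29 at the low and -0.45 at the high dose, and with the hepatocyte average by -0.29 and -0.46. These values describe the selected gene, and the part of heart or liver cells in its fall was not tested. None of the 5 related genes was called in either fit.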

How the data were processed

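RNA of 15 fetal lung and 15 fetal liver pools was measured on Affymetrix mouse expression arrays. The deposited values are log2 probe set levels made with RMA, per the submitters' processing notes. RMA removes background, sets the arrays on a common scale and combines each set's probes, and it understates changes of dim probe sets. The sources used here give neither its version nor whether both tissues were normalized together. Per the labels' protocols, RNA was kept at integrity numbers from 8 up. Arrays of 1 group correlated with r of 0.990 to 0.995 across probe sets, and the number of litters limits the precision. Litters are separate biological samples, per the labels.

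The platform annotation gives 1 symbol to 34945 probe sets, several to 932 and none to 9160, and 64 more are controls. Tests in a tissue took the genes whose probe set exceeded the array's 40th percentile on 5 or more of its 15 arrays. Doses were compared within each tissue by limma 3.58.1 (R 4.3.3), and its 2-sided p-values took the Benjamini-Hochberg adjustment over all genes tested. Called means an adjusted p below 0.05. Tissues were compared in 1 fit of all 30 arrays. Correlations between litters used 100000 permutations within doses. The fits were tested on simulated data. Figures were drawn with matplotlib 3.10.9.

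The members and lists were chosen with earlier results of these data known. Of 99 listed pathway genes 91 matched a symbol, and of 96 markers 90. The others were not analysed here. Genes named were the 6 peptidases, the 5 genes most like Mme, up to 3 called genes per list and tissue, and 13 of 15 names set beforehand, the others not analysed here. Phex, Kel, Ide, Cma1, Nppa, Nppb and Glp1r were added after their values were seen. The alternatives were other filters, probe set rules, normalization, samples in the fit, array weights, variance models, a replicate block and each litter left out, plus marker averages as covariates.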

Additional observations from a re-analysis of the deposited data

Results flagged for a closer look

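In 78 groups of 5 litters, formed by the 13 probe sets, 2 litters stood apart from the rest by Dixon's criterion, which chance alone gives in about 1 group in 20. For Mme probe set 1455961_at in liver at 5 mg/kg/day, litter 4 read 3.714 and the next highest litter 2.696. All 5 litters of that group were below the 40th percentile of the array. For the dim Ece1 probe set 1441423_at in liver at 5 mg/kg/day, litter 5 read 3.787 and the next lowest litter 4.48.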

How the results depend on the processing

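The number of related peptidases called stayed at 0 in lung under all 22 alternatives per dose and in liver under all 20. In lung none of 218 alternative values for single genes was called, with a lowest adjusted p of 0.601, and in liver none of 198, with a lowest of 0.0996. The alternatives reuse the same arrays. In lung the main fit called only 2 of 12897 genes at the low dose and 7 at the high dose, so a steady count of 0 there says little. Mme in lung ranged from -0.33 to -0.26 at 5 mg/kg/day and from -0.52 to -0.42 at 10 mg/kg/day. The sign turned for small values only. With the mean of all probe sets of a gene, Ece1 in lung was 0.022 and 0.016, Ace in liver at 10 mg/kg/day was -0.084, and lung minus liver at 5 mg/kg/day was 0.059 for Ece1, 0.031 for Ace and -0.031 for Dpp4. That setting also took Mme's lung minus liver difference at 10 mg/kg/day to -0.19 and called Dpp4 between tissues. With array weights Ece1 lung minus liver at 5 mg/kg/day was 0.020. With each litter left out in turn, Dpp4 ran from -0.045 to 0.037 in lung at 5 mg/kg/day, and in liver from -0.12 to 0.0060 at 5 and from -0.073 to 0.025 at 10 mg/kg/day. Anpep in liver ran from -0.23 to 0.055 at 5 and from -0.044 to 0.20 at 10 mg/kg/day. The cause was not tested.

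Among the other genes called in liver, Agt and Lta4h at 10 mg/kg/day and Klkb1 at 5 mg/kg/day were not called without the filter (adjusted p = 0.0564, 0.0572 and 0.0530). In the fit of both tissues Agt, Klkb1 at 5 mg/kg/day and Cpn2 were not called (0.142, 0.226 and 0.313), and with only the groups compared Agt and Ednrb at 5 mg/kg/day were not (0.0842 and 0.0561). Within a tissue, the deviations of litters with the same number at different doses were compared. Their correlations ran from -0.306 to 0.274 in lung, with 3 of 15 over 0.1, and from -0.137 to 0.132 in liver, with 4 of 15. Pairs of litters with different numbers were not examined, so whether the numbers pair arrays within a tissue was not settled. Whether lung and liver arrays of the same number deviate together was not tested. With a replicate block the counts of called peptidases were the same, and the adjusted p of Enpep at 10 mg/kg/day was 0.819 in lung and 0.200 in liver.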
